A study of Mus musculus with 6 samples.

Results

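Cardiomyocyte-enriched cells from C57BL/6J mice given the drug BIX-01294 after transverse aortic constriction (TAC_BIX) were compared with such cells from mice given the vehicle DMSO after the same operation (TAC_DMSO), over all genes measured. The comparison took 4 of the 6 arrays of the study, 2 in each group, chosen by their labels alone. The other 2 arrays, from sham-operated mice with no drug or vehicle named, entered the fit only through their spread and are quoted as a reference level. BIX-01294 was delivered for 1 week from osmotic pumps under the skin, per the labels, while the duration of vehicle treatment, the dose, and the age and sex of the mice are not stated in those labels. Both groups carried the aortic constriction, so every difference below is between drug and vehicle in pressure-loaded hearts. The labels also leave unstated how many mice stand behind 1 array and where the arrays lay on slides, so an effect of slide and an effect of the drug cannot be told apart.

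Transverse aortic constriction narrows the aorta, makes the left ventricle pump against a raised pressure and leads to cardiac hypertrophy. BIX-01294 is a small molecule that inhibits G9a and GLP, the enzymes encoded by Ehmt2 and Ehmt1. These enzymes place methyl groups on lysine 9 of histone H3, a mark associated with silent genes, so that their inhibition is known to release some silenced genes. Pressure-loaded heart muscle is known for raised natriuretic peptide and skeletal actin transcripts, for a shift in fuel use and for matrix deposition.

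The arrays carried the marks of heart muscle. Of the 20 cardiomyocyte markers listed, 19 were measured, and 18 of these were detected on all 4 arrays; their summed signal was 304970 and 324032 in TAC_DMSO and 337302 and 337280 in TAC_BIX. Other cell types were present as well, as the term "enriched" allows: 18 of the 19 measured fibroblast markers, 18 of the 19 endothelial markers and 21 of the 21 macrophage and leukocyte markers were detected on all 4 arrays. Of 17 lymphocyte markers 2 were measured, and of 8 adipocyte markers 0. Each array detected between 36.7% and 40.9% of its probes. Across genes the TAC_DMSO replicates correlated with r = 0.982 and the TAC_BIX replicates with r = 0.988. Levels are normalized log2 signals, each difference is TAC_BIX minus TAC_DMSO on that scale with the standard error (SE) of the fit, and a probe's level is not compared with that of another probe.

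With the drug, the largest differences were toward lower levels. Transcripts of 4 atrial muscle proteins were lower in both TAC_BIX arrays than in both TAC_DMSO arrays. Lists of interferon-induced, antigen-presentation, ribosomal, complex I, Sm and LSm and histone genes had medians below 0, and lists of the citrate cycle and of glycolysis had medians above 0. No single gene passed the threshold of the test. Of 10538 genes tested with limma, 0 had a Benjamini-Hochberg adjusted p under 0.05 (0%), and the smallest was 0.0590. At an adjusted p under 0.1 there were 540 genes (5.12%), 93 higher (0.883%) and 447 lower (4.24%). At an unadjusted p under 0.05 there were 2090 (19.8%), 963 higher (9.14%) and 1127 lower (10.7%). The 2 groups of arrays did not overlap for 51.7% of genes.

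The lower side held the larger differences. Among the 540 genes, 206 were lower by more than 1 log2 unit and 7 were higher by more than that, although 53.4% of all genes lay above 0 and 46.6% below, and the median over all genes was 0.03. The balance of directions depended on the normalization. The counts at an adjusted p under 0.1, higher and lower, were 609 and 731 after quantile normalization without background correction, 618 and 679 with the authors' processed values, 441 and 706 when 50 was added before the logarithm in place of 16, and 68 and 765 after median scaling. They were 239 and 133 when the median of all probes was used for scaling, a setting added after the data were seen, which moved the median of all genes to 0.23. The count at an adjusted p under 0.05 ran from 0 to 709 over the 21 alternative settings.

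**Figure D1:**
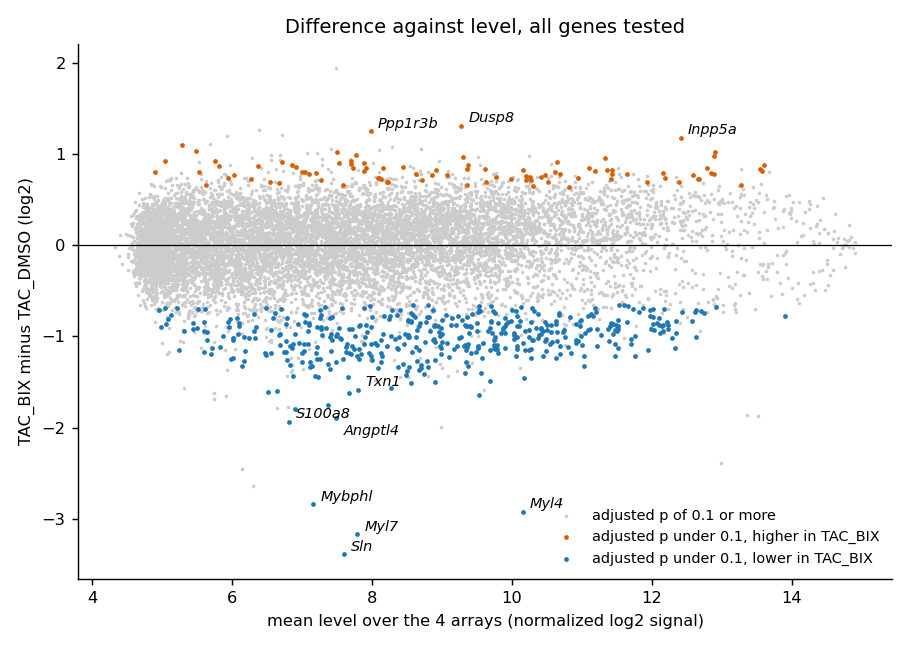
Difference between TAC_BIX and TAC_DMSO (log2) against the mean level of each of the 10538 genes over the 4 arrays (normalized log2 signal), 1 point a gene. Coloured points had an adjusted p under 0.1 (93 higher, 447 lower), and the 4 lowest points with a colour are Sln, Myl7, Myl4 and Mybphl.

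The 4 largest negative differences among genes with an adjusted p under 0.1 belonged to muscle genes of the atria. Sln encodes sarcolipin, a small inhibitor of the sarcoplasmic calcium pump in atrial muscle. It measured 8.52 and 10.07 in TAC_DMSO and 6.03 and 5.77 in TAC_BIX. Both TAC_BIX arrays lay below both TAC_DMSO arrays and below both sham arrays (9.97 and 10.79), a difference of -3.39 ± 0.48 (SE), or 10.5-fold (adjusted p = 0.0652).

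Myl7, the atrial regulatory myosin light chain gene, measured 8.71 and 10.04 in TAC_DMSO and 6.27 and 6.13 in TAC_BIX, a difference of -3.17 ± 0.40. Myl4, the essential light chain gene of the atria and of the fetal ventricle, measured 11.24 and 11.99 against 8.73 and 8.65. Its difference of -2.93 ± 0.26 had the smallest adjusted p of all genes (0.0590). Mybphl, a myosin-binding protein gene of the atria, measured 7.95 and 9.21 against 5.83 and 5.64 and differed by -2.84 ± 0.38. In each of these genes the TAC_DMSO replicates differed more from each other than the TAC_BIX replicates did, with replicate 2 the higher, and the sham arrays were nearer to TAC_DMSO than to TAC_BIX. Without TAC_DMSO replicate 1, with the remaining array taken to vary like the other groups, all 4 passed the threshold, with adjusted p of 0.0136 for Sln and 0.00806 for Myl7, Myl4 and Mybphl. Without TAC_DMSO replicate 2 only Myl4 of these 4 passed (0.0224).

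The other atrial markers did not show this pattern, though some had little room to. Fgf12, Nr2f2, Tbx5 and Clec3b had TAC_DMSO means of 4.53, 4.76, 4.91 and 5.05. These lay near the detection floor of those arrays (4.82 and 4.93), where a fall could hardly show. Of 12 atrial markers measured, 7 were below 0 and 5 above, with a median of -0.12 that became 0.14 with median scaling over all probes. The 3 at an adjusted p under 0.1 were Sln, Myl7 and Myl4. Nppa is the gene of atrial natriuretic peptide, which pressure-loaded ventricles also make. It measured 14.68 and 14.81 in TAC_DMSO and 14.76 and 14.53 in TAC_BIX, so the groups overlapped. These values lay near the highest signal of the arrays (14.98), where differences can be compressed. Pam, which encodes an enzyme that amidates peptides and is abundant in atria, was on the opposite side (0.65 ± 0.26, adjusted p = 0.233). The summed signal of the 12 atrial markers, most of it from Nppa, was 30539 and 36449 in TAC_DMSO, 30050 and 25731 in TAC_BIX, and 17401 and 22392 in sham. The ventricular light chain genes Myl2 (0.07 ± 0.17) and Myl3 (0.14 ± 0.17) also lay near the highest signal. They turned to -0.28 and -0.23 with median scaling. In RNA from mixed cells, fewer cells of a type and less RNA per cell cannot be told apart, and the part of atrial tissue in these values was not tested.

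RefSeq held a promoter for Myl7 and Mybphl (GRCm38.p6), and the 120 bases before each start site are shown because these genes were among the 4 lowest. A CArG box, the binding motif of serum response factor in muscle promoters, is in capitals.
Myl7, chr11:5898783-5898902, minus strand: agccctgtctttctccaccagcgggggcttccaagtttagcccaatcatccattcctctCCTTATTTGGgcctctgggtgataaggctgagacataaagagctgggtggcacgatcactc
Mybphl, chr3:108364791-108364910, plus strand: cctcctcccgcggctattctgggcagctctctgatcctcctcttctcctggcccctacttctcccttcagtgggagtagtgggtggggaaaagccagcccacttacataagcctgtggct
On both strands, Myl7 held 1 match within the 250 bases before its start site and Mybphl 0. Of the 8 atrial markers with a listed promoter, 1 held a match, against 1.59% of the 8516 genes tested that had an entry. A match of letters is a description of the window only.

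**Figure D2:**
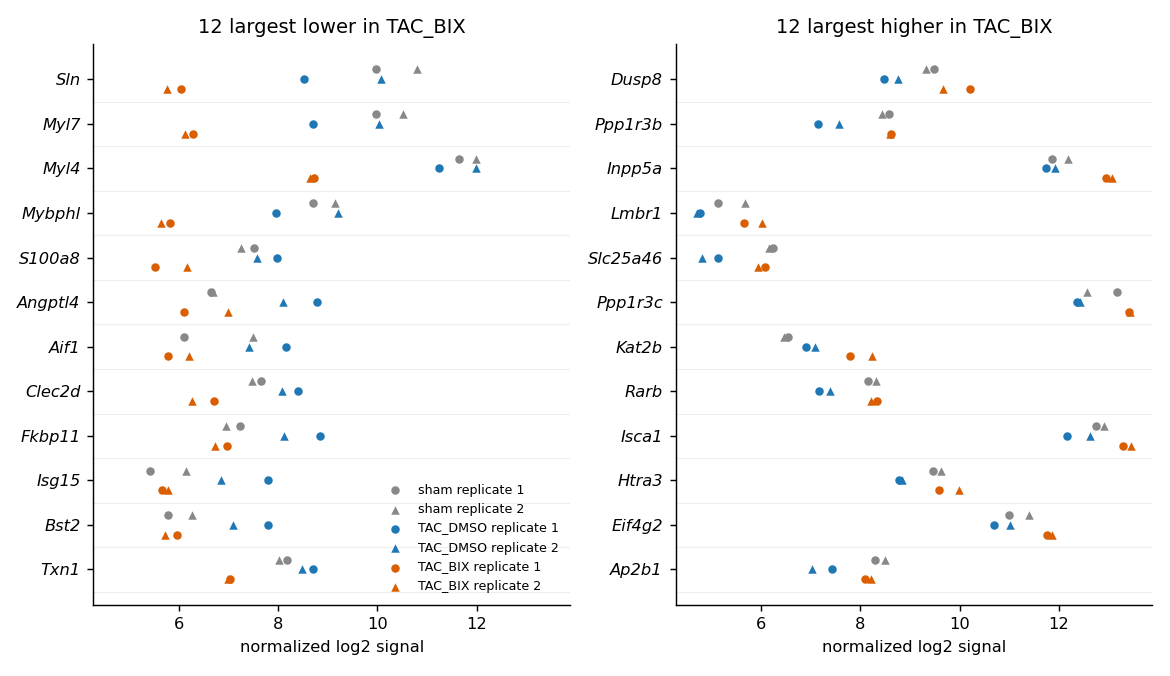
Normalized log2 signal on each of the 6 arrays for the 12 genes with the largest negative (left) and the 12 with the largest positive difference (right) among those with an adjusted p under 0.1; circles are replicate 1 and triangles replicate 2. The TAC_BIX and TAC_DMSO points do not overlap for any of the 24 genes, which the rule for choosing them required, and for Sln, Myl7, Myl4, Mybphl, S100a8, Clec2d and Txn1 the TAC_BIX points also lie below both sham points.

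Interferon-induced transcripts were lower with the drug, by modest amounts. Of 30 interferon response genes measured, 27 were below 0, with a median of -0.38. A total of 3 were at an adjusted p under 0.1, all lower, against 4.24% of all genes lower. Isg15 encodes a ubiquitin-like protein that is joined to other proteins after interferon. It measured 7.80 and 6.84 in TAC_DMSO and 5.66 and 5.77 in TAC_BIX, a 3.04-fold difference (-1.61 ± 0.35, adjusted p = 0.0725). Bst2, the gene of tetherin, which holds virus particles at the cell surface, measured 7.79 and 7.10 against 5.96 and 5.73 (-1.60 ± 0.28, adjusted p = 0.0652). In both genes the TAC_BIX arrays were at the level of sham (5.42 and 6.15 for Isg15, 5.77 and 6.26 for Bst2). Since TAC_DMSO is shared by both differences, this says only where the 3 groups lay.

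Eif2ak2 encodes PKR, the interferon-induced kinase that stops translation when it meets double-stranded RNA. It measured 8.34 and 8.45 in TAC_DMSO, 7.18 and 7.18 in TAC_BIX and 7.26 and 7.40 in sham (-1.22 ± 0.17, adjusted p = 0.0652). The groups did not overlap, as for 51.7% of all genes, and the replicates lay close together. The chemokine gene Cxcl9 measured 6.86 and 7.47 against 5.91 and 6.49 (-0.96 ± 0.27, adjusted p = 0.122). On the other side, and chosen after its value was seen, was Ddx58, the gene of the RNA sensor RIG-I (0.79 ± 0.24, adjusted p = 0.143). Across the 21 alternative settings the median of the interferon list ran from -0.63 to -0.13, with -0.14 without TAC_BIX replicate 1 and -0.63 without replicate 2.

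The promoters of Isg15 and Bst2 are shown because both carry the interferon-stimulated response element, a motif known from the promoters of interferon-induced genes. It was searched as GAAA, any 2 bases and GAAA on both strands in the 250 bases before the start site, and its matches, which overlap each other, are in capitals (RefSeq, GRCm38.p6).
Isg15, chr4:156200819-156200938, minus strand: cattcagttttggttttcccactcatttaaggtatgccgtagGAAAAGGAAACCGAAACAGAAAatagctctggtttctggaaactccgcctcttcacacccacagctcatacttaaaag
Bst2, chr8:71537503-71537622, minus strand: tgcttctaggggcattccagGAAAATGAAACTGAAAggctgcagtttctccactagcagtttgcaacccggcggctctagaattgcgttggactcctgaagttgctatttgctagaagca
The Isg15 window ends at the base before the start site and the Bst2 window 31 bases before it. Isg15 held 3 matches and Bst2 2. Of the 24 interferon response genes with a promoter in the table, 10 held the element, against 3.16% of the genes tested. Those 10 had a median difference of -0.62, with 10 below 0, and the other 14 had a median of -0.32, with 12 below 0. The list was drawn up from genes known to answer to interferon, so the element was likely to be found among them.

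Antigen-presentation genes lay on the same side. Of 20 genes of MHC class I and the immunoproteasome, 16 were below 0, the median being -0.47. Here 3 were at an adjusted p under 0.1, all lower, against 4.24% of all genes lower. Psme2, a subunit of the proteasome activator PA28, measured 9.45 and 9.60 in TAC_DMSO and 8.52 and 8.42 in TAC_BIX (-1.06 ± 0.17, adjusted p = 0.0652). Psmb9, an inducible catalytic subunit of the immunoproteasome, differed by -1.16 ± 0.23 and the peptide transporter gene Tap2 by -0.98 ± 0.20 (adjusted p = 0.0689 and 0.0698). Psmb9 is also in the interferon list and was counted among the 3 at an adjusted p under 0.1 there. All 7 MHC class II genes measured were below 0, with a median of -0.94, and H2-DMa, a chaperone of peptide loading, was the 1 at an adjusted p under 0.1 (-0.94 ± 0.23). TAC_BIX replicate 1 stood lower than replicate 2 in that list, at a median of -1.58 and -0.20 relative to the TAC_DMSO mean. The median difference without TAC_BIX replicate 1 was -0.20. Its members H2-Aa and H2-Eb1 are also among the leukocyte markers below, so the lists share genes.

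Leukocyte markers differed with the array. Of 21 macrophage and leukocyte markers, 19 were below 0, the median being -0.35, and Aif1, the macrophage gene of the protein IBA1, was the 1 at an adjusted p under 0.1, a share near the 4.24% of all genes that were lower. It measured 8.16 and 7.42 in TAC_DMSO and 5.79 and 6.21 in TAC_BIX, against 6.11 and 7.50 in sham (-1.79 ± 0.45, adjusted p = 0.0936). The summed signal of the 21 markers was 36955 and 21574 in TAC_DMSO, 20415 and 26462 in TAC_BIX, and 17180 and 24475 in sham, so TAC_DMSO replicate 1 stood apart from the other arrays. Without that array the median of the list was 0.11, while that of the interferon list was between -0.63 and -0.14 whichever array was left out. The neutrophil genes S100a8 (-1.93 ± 0.26) and S100a9 (-1.02 ± 0.24), whose products form calprotectin, were lower on both TAC_BIX arrays, at adjusted p = 0.0652 and 0.0882. Clec2d, a ligand of a natural killer cell receptor, measured 8.40 and 8.09 against 6.71 and 6.27 (-1.76 ± 0.22). The part of leukocyte content in the interferon and MHC values was not tested.

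Genes of several large complexes were lower. Of 17 Sm and LSm genes, whose products form rings around spliceosomal and decay-related RNA, 15 were below 0, with a median of -0.89, and 10 were lower at an adjusted p under 0.1 against 4.24% of all genes. Snrpd1, a core Sm ring gene, measured 9.31 and 9.05 in TAC_DMSO and 8.03 and 7.58 in TAC_BIX (-1.37 ± 0.21). Lsm6 differed by -1.33 ± 0.21 and Lsm5 by -1.31 ± 0.22 (adjusted p = 0.0652 for all 3). The 3 probes of Lsm6 ran from -1.33 to -0.08, and their mean differed by -0.50. Split after the values were seen, the 6 Sm ring genes had a median of -1.35 and the 7 LSm genes -0.89, and the 4 other members of the list had one of 0.04, with a change of sign in 2 of the 21 settings. The SR and hnRNP splicing factors, which do not form such rings, had a median of 0.09, which became -0.0062 with median scaling, with 0 of 25 genes at an adjusted p under 0.1 and 4 at an unadjusted p under 0.05.

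Cytosolic ribosomal protein genes were lower for 49 of 55 measured, with a median of -0.66. Among them 14 were at an adjusted p under 0.1, all lower, against 4.24% of all genes lower. Rps16, of the small subunit, measured 12.60 and 12.14 in TAC_DMSO and 11.29 and 11.02 in TAC_BIX (-1.22 ± 0.22). Rpl26 differed by -1.15 ± 0.21 and Rpl36a by -1.09 ± 0.20, both of the large subunit (adjusted p = 0.0671 for each). The small and large subunits had medians of -0.65 and -0.70. Of 73 mitochondrial ribosomal genes, 53 were below 0, the median being -0.41 (-0.24 without TAC_BIX replicate 2). In that list 20 were lower at an adjusted p under 0.1, against 4.24% of all genes, with 0 higher. Mrpl52 differed by -1.27 ± 0.22 and Mrps33 by -0.85 ± 0.16. Ribosomal protein and histone genes have near-identical copies in the genome, so the signal of one probe may include that of others.

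Respiratory chain genes differed by subunit. Of 34 complex I genes, 31 were below 0, the median being -0.59. Among the 34, 9 were lower at an adjusted p under 0.1, against 4.24% of all genes. Ndufb4, an accessory subunit, measured 8.58 and 8.91 in TAC_DMSO and 7.81 and 7.26 in TAC_BIX (-1.21 ± 0.23). Split after the values were seen, the 29 accessory subunits had a median of -0.66 and the 5 core subunits, which carry the electron path, one of -0.07, which turned to 0.08 without TAC_DMSO replicate 2. Other complexes, split in the same way, differed within themselves as well. In complex III the 4 small subunits lay between -0.49 and -0.28, and the 5 core subunits and electron carriers lay between 0.17 and 0.48. In either group 0 were at an adjusted p under 0.1. Over the alternative settings the 2 medians ran from -0.82 to -0.29 and from 0.025 to 0.34. Of 12 cytochrome c oxidase genes 11 were below 0, led by Cox7a2 (-1.25 ± 0.24) and Cox7b (-1.06 ± 0.22).

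ATP synthase genes also differed by subunit. Atp5e, the epsilon subunit gene, measured 9.15 and 9.25 in TAC_DMSO and 8.40 and 7.32 in TAC_BIX (-1.34 ± 0.33, adjusted p = 0.0905), a difference of -0.80 without TAC_BIX replicate 2. Atp5k (-0.94 ± 0.18) and Atp5l (-0.77 ± 0.19), of the membrane part, and the inhibitor gene Atpif1 (-0.75 ± 0.17, or -0.37 as the mean of its probes) were also at an adjusted p under 0.1. Atp5a1 and Atp5b, which like Atp5e belong to the catalytic part, were chosen after their values were seen and differed by 0.29 and -0.02. The probes of Atp5a1 disagreed, and the mean over them differed by -0.58. Of the genes that import proteins into mitochondria, 16 of 21 Tim and Tom members lay below 0 (median -0.42). In this list 5 were lower at an adjusted p under 0.1, against 4.24% of all genes. Timm10b differed by -1.19 ± 0.19 and Tomm6 by -0.94 ± 0.16 (adjusted p = 0.0652 for both).

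Histone genes were lower for 40 of 49 measured, with a median of -0.70. Of the 49, 18 were lower at an adjusted p under 0.1, against 4.24% of all genes. H4c18 measured 7.53 and 7.65 in TAC_DMSO and 6.09 and 6.21 in TAC_BIX (-1.44 ± 0.17), and H4c1 measured 10.09 and 9.92 against 8.86 and 8.77 (-1.18 ± 0.17, adjusted p = 0.0652 for both). By family, the median was -1.12 over 10 H4 genes, -0.97 over 17 H2A genes, -0.81 over 9 H2B genes, -0.20 over 10 H3 genes and -0.15 over 3 linker histone genes. No H3 gene was at an adjusted p under 0.1, and the 10 ran from -0.44 to 0.09. The H3 median was 0.01 when the median of all probes was used for scaling, and that of the linker histones was above 0 in 4 settings. Most canonical histone transcripts end in a stem-loop in place of a poly(A) tail. The canonical cell cycle list had a median of -0.21, which became 0.11 without TAC_DMSO replicate 1 and 0.028 with median scaling over all probes, with 0 of 30 genes at an unadjusted p under 0.05.

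These lists hold short genes. When all genes were ordered by their genomic span in RefSeq and divided into 5 groups of equal size, 66.4% of the group with the shortest spans (up to 7.42 kb) were below 0, with a median of -0.19, and 12.1% were lower at an adjusted p under 0.1. In the group with the longest spans (from 67.9 kb) 37.3% were below 0, the median was 0.11, and 1.23% were lower. The groups between them had medians of -0.01, 0.08 and 0.11. The median span was 22.5 kb for all genes. It was 0.504 kb for histone genes and 3.27 kb for cytosolic ribosomal genes. Sm and LSm genes had 7.36 kb and complex I genes 7.74 kb. The immune lists held short genes too. MHC class I and immunoproteasome genes had 5.07 kb, MHC class II genes 8.80 kb and interferon response genes 9.30 kb. Macrophage and leukocyte markers had 5.10 kb. The atrial markers had 22.2 kb and the citrate cycle list 23.5 kb. Relative to the TAC_DMSO mean, the shortest group stood at -0.17 and -0.22 on the TAC_BIX arrays and at 0.03 and -0.03 on the TAC_DMSO arrays. This description by span was added after the data were seen, and the part of RNA quality in it was not tested.

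**Figure D3:**
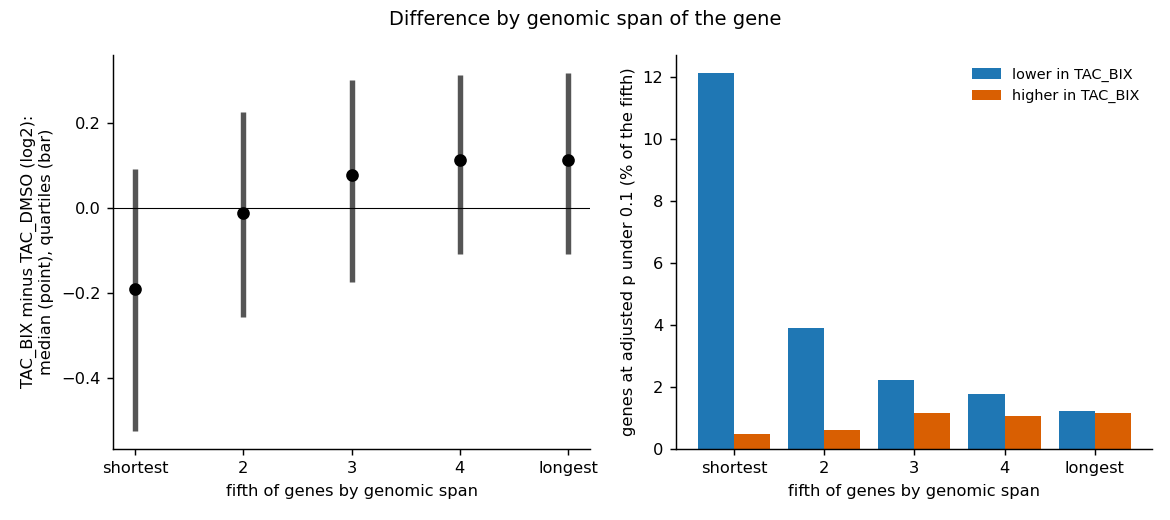
Left, median (point) and quartiles (bar) of the difference between TAC_BIX and TAC_DMSO (log2) in 5 equal groups of genes ordered by genomic span; right, the percentage of each group with an adjusted p under 0.1, lower or higher in TAC_BIX. The shortest group has a median of -0.19 and 12.1% lower, and the longest a median of 0.11 and 1.23% lower.

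**Figure D4:**
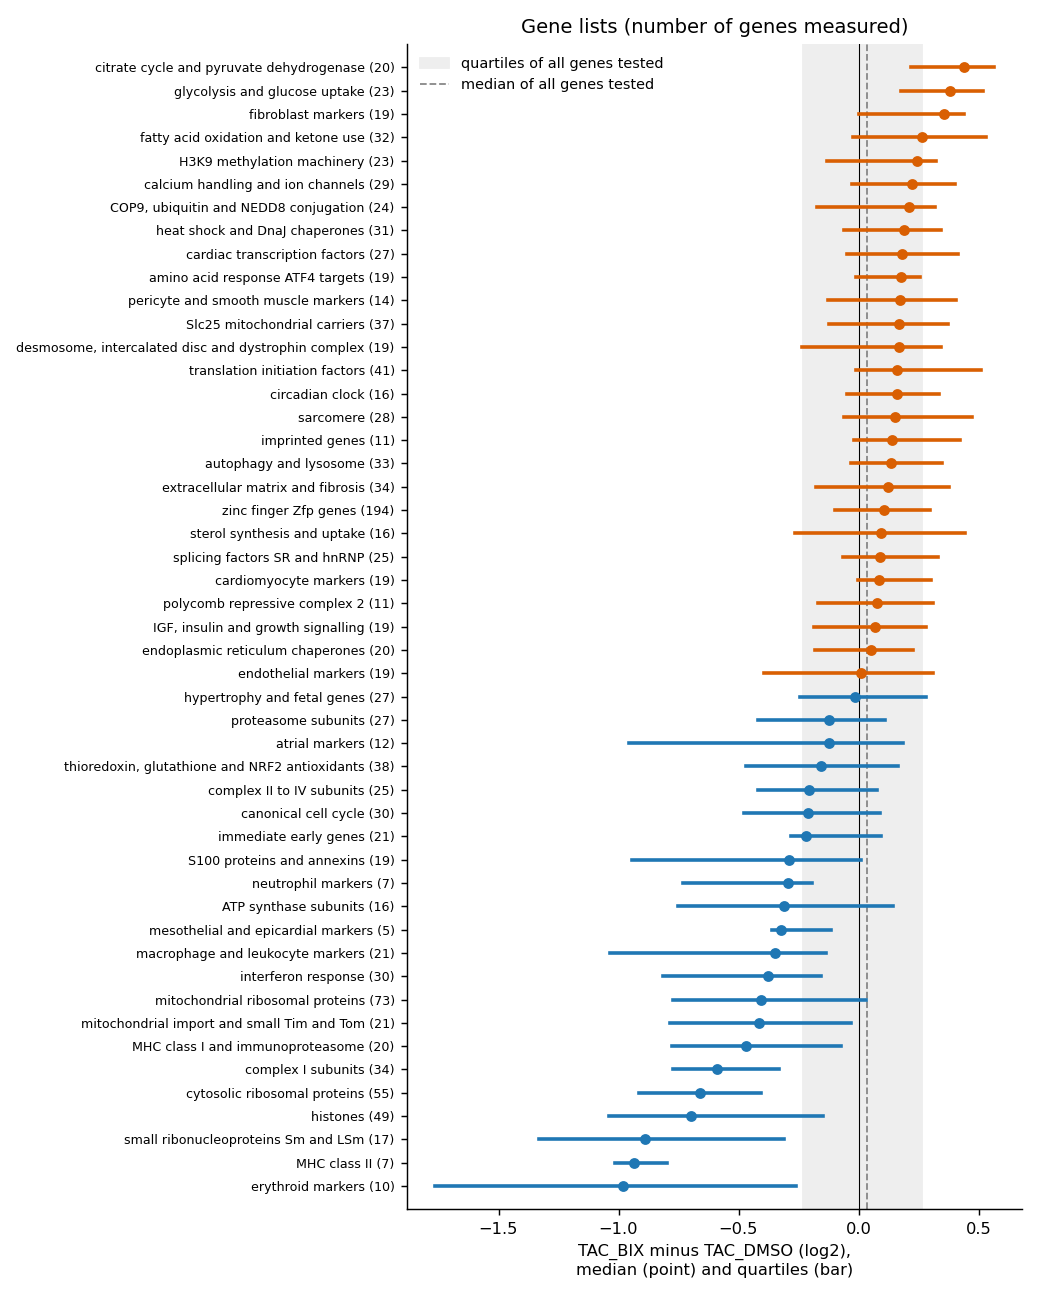
Median (point) and quartiles (bar) of the difference between TAC_BIX and TAC_DMSO (log2) over the measured members of each list with at least 5 of them, numbers measured in brackets. The grey band holds the quartiles of all 10538 genes and the dashed line their median of 0.03; Sm and LSm genes (-0.89), histones (-0.70) and cytosolic ribosomal genes (-0.66) lie to the left of the band and the citrate cycle (0.44) to the right.

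On the higher side, 2 subunits that bring protein phosphatase 1 to glycogen were prominent. Ppp1r3b measured 7.14 and 7.57 in TAC_DMSO and 8.62 and 8.59 in TAC_BIX, a 2.38-fold difference (1.25 ± 0.20, adjusted p = 0.0652). Ppp1r3c measured 12.37 and 12.42 against 13.40 and 13.44 (1.03 ± 0.22, adjusted p = 0.0729). In both genes the groups did not overlap, which the rule for choosing them required. The TAC_BIX arrays of both lay at or above the sham arrays (8.58 and 8.43 for Ppp1r3b, 13.17 and 12.56 for Ppp1r3c).

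Dusp8, a phosphatase gene that switches off the stress kinases JNK and p38, had the largest positive difference at an adjusted p under 0.1. It measured 8.48 and 8.76 in TAC_DMSO, 10.21 and 9.65 in TAC_BIX and 9.48 and 9.31 in sham (1.31 ± 0.23, adjusted p = 0.0652). Inpp5a, which removes a phosphate from the calcium-releasing messenger inositol trisphosphate, measured 11.73 and 11.91 against 12.95 and 13.06 (1.18 ± 0.19). Its sham values were 11.85 and 12.18, so only the TAC_BIX arrays stood high. Kat2b, the gene of the acetyltransferase PCAF, which acetylates lysine 9 of histone H3 among other sites, measured 6.89 and 7.08 against 7.79 and 8.24, with 6.53 and 6.45 in sham (1.02 ± 0.20, adjusted p = 0.0693).

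Other genes on the higher side had sham levels above TAC_DMSO. Rarb, a retinoic acid receptor gene, measured 7.17 and 7.38 in TAC_DMSO, 8.33 and 8.21 in TAC_BIX and 8.14 and 8.32 in sham (0.99 ± 0.18). Ap2b1, of the clathrin adaptor AP-2, differed by 0.93 ± 0.20, and Htra3, a secreted serine protease gene, by 0.97 ± 0.20, while the means over their probes differed by 0.43 and 0.61. Isca1, which assembles iron-sulfur clusters in mitochondria, differed by 0.98 ± 0.21. Lmbr1, a membrane protein gene, was not detected on either TAC_DMSO array. With the normalization used here it was at least 1.94-fold higher in TAC_BIX. Over 20 alternative settings the Lmbr1 difference ran from 0.21 to 1.33. Slc25a46, which shapes mitochondria from their outer membrane, was detected on 1 of the 2 TAC_DMSO arrays (5.12 and 4.81, against 6.07 and 5.94).

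Genes of fuel oxidation had medians above 0 that depended on the scaling. Of 20 genes of the citrate cycle and pyruvate dehydrogenase, 18 were above 0, with a median of 0.44 that became 0.099 with median scaling and 0.28 without TAC_DMSO replicate 1, and 1 was at an adjusted p under 0.1 against 0.883% of all genes. That gene was Pdha1, the E1 subunit of pyruvate dehydrogenase, which measured 12.93 and 13.38 in TAC_DMSO, 14.00 and 14.07 in TAC_BIX and 13.77 and 13.81 in sham (0.88 ± 0.20, adjusted p = 0.0787). Dlst (0.68 ± 0.19) had probes that disagreed in sign, and Ogdh, of the same oxoglutarate dehydrogenase complex, differed by 0.58 ± 0.20. On the arrays the citrate cycle list stood at 0.48 and 0.36 in TAC_BIX and at 0.46 and 0.38 in sham, relative to the TAC_DMSO mean.

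Glycolysis and glucose uptake genes were above 0 for 20 of 23, with a median of 0.38 that became 0.079 with median scaling, and 0 were at an adjusted p under 0.1, with 8 higher and 1 lower at an unadjusted p under 0.05. Pfkfb2, which makes the activator of phosphofructokinase, differed by 0.98 ± 0.27. Pdk4, which shuts pyruvate dehydrogenase during fatty acid use, had means of 11.30 ± 0.0028 (SD, n = 2) in TAC_DMSO and 10.44 ± 0.63 in TAC_BIX (-0.86 ± 0.29, adjusted p = 0.172). Sham stood at 0.11 and -0.01 in that list, against 0.34 and 0.45 in TAC_BIX. Of 32 fatty acid oxidation and ketone genes, 23 were above 0, with a median of 0.26 that became -0.03 with median scaling. Etfdh, which passes electrons from fatty acid oxidation to ubiquinone, differed by 0.79 ± 0.19 (adjusted p = 0.0926, or by 0.33 as the mean of its probes), and Angptl4, a fasting-induced inhibitor of lipoprotein lipase, by -1.90 ± 0.33 (adjusted p = 0.0652). Angptl4 measured 8.78 and 8.10 in TAC_DMSO, 6.10 and 6.98 in TAC_BIX and 6.65 and 6.69 in sham.

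**Figure D5:**
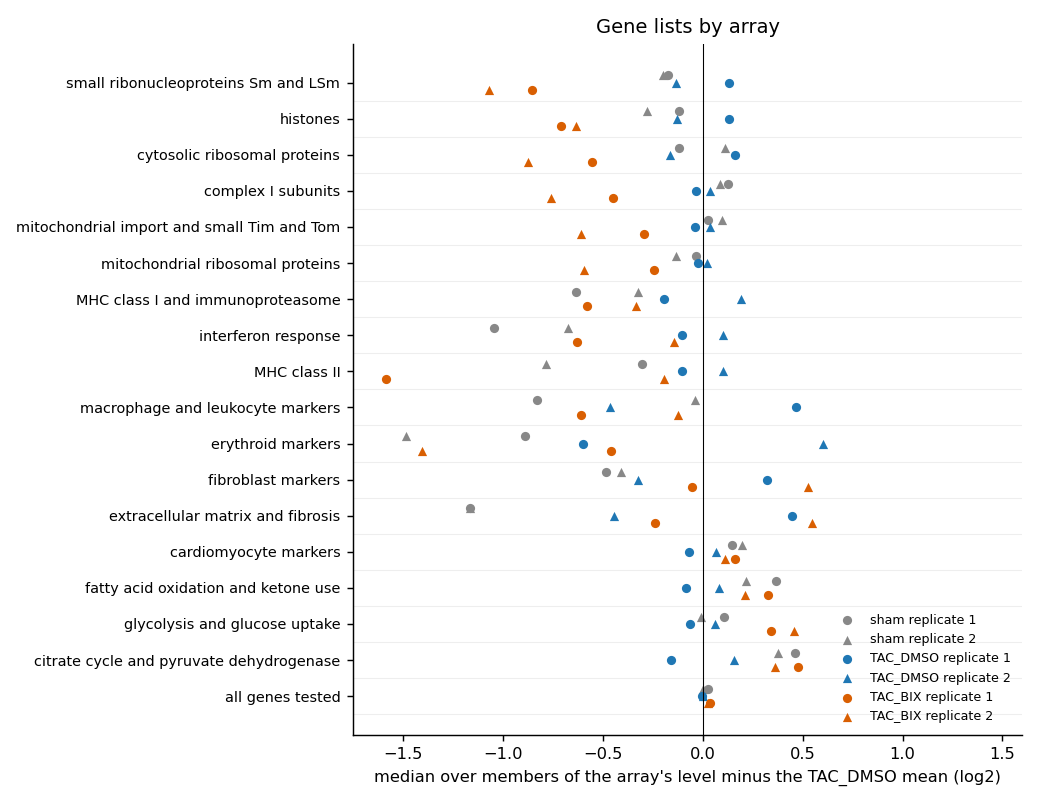
Median over the members of each list of an array's level minus the TAC_DMSO mean (log2), for the 6 arrays; circles are replicate 1 and triangles replicate 2. Sm and LSm, histone, ribosomal and complex I genes lie below both other groups on both TAC_BIX arrays, while fibroblast and matrix genes split the replicates of TAC_DMSO and of TAC_BIX, and erythroid genes are highest in TAC_DMSO replicate 2.

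Translation factors and their regulators went to both sides. Of 41 genes of initiation factors and their regulators, 29 were above 0. At an adjusted p under 0.1, 4 were higher and 3 lower, against 0.883% and 4.24% of all genes. The 3 lower were the kinase gene Eif2ak2, the repressor gene Eif4ebp1 and Eif3k. Eif2ak2 was described above with the interferon-induced genes but was counted in this list and not in theirs. Eif4g2, which initiates translation without binding the cap-binding protein, measured 10.69 and 11.01 in TAC_DMSO and 11.76 and 11.86 in TAC_BIX (0.96 ± 0.21). Eif4ebp1, the repressor of the cap-binding protein, had means of 11.97 ± 0.093 (SD, n = 2) against 11.08 ± 0.11, with 10.87 and 10.81 in sham (-0.89 ± 0.17, adjusted p = 0.0671). Eif3k, a subunit of the factor that binds the ribosome, differed by -1.10 ± 0.19.

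Redox and stress genes lay on both sides. Txn1, the cytosolic thioredoxin gene, measured 8.71 and 8.47 in TAC_DMSO, 7.02 and 6.99 in TAC_BIX and 8.19 and 8.02 in sham (-1.59 ± 0.18, adjusted p = 0.0652). Gstp1, a glutathione transferase gene, differed by -0.78 ± 0.19, while the antioxidant list as a whole had a median of -0.16, with 24 of 38 below 0. Fkbp11, a prolyl isomerase of the endoplasmic reticulum, measured 8.84 and 8.11 against 6.98 and 6.74 (-1.62 ± 0.26). Of the heat shock genes, Hspb7, a small chaperone of heart muscle, measured 13.16 and 13.19 against 13.97 and 14.00 (0.81 ± 0.17, adjusted p = 0.0712). Hspe1, the mitochondrial co-chaperonin gene, differed by -1.15 ± 0.27, or -0.73 without TAC_BIX replicate 2.

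None of the drug's targets and their partners was at an adjusted p under 0.1. Ehmt2 measured 8.05 and 8.0 in TAC_DMSO and 8.14 and 8.38 in TAC_BIX, with probes that disagreed in sign (0.24 ± 0.17, adjusted p = 0.478). Ehmt1 lay at the detection floor, with detection on both TAC_DMSO arrays and 1 TAC_BIX array, and differed by -0.11 ± 0.16. These are transcript levels, and the drug acts on the enzymes. Of 23 genes of histone H3 lysine 9 methylation and its removal or reading, 16 were above 0, with a median of 0.24 that became 0.15 without TAC_BIX replicate 2 and 0.096 with the mean of probes, and 0 were at an adjusted p under 0.1, with 2 at an unadjusted p under 0.05. These were Setdb1, another lysine 9 methyltransferase gene (0.49 ± 0.17), and Cbx5, the gene of the reader HP1 alpha (-0.58 ± 0.19, from 7.59 and 7.48 to 7.08 and 6.83). Of 20 genes listed as silenced through G9a in embryonic stem cells or as germline genes, 2 were measured. Rhox5 measured 6.70 and 6.77 against 6.49 and 5.77, with 5.03 and 5.07 in sham (-0.61 ± 0.24, adjusted p = 0.227). Its difference ran from -0.97 to -0.20 over the alternative settings. The other, Pou5f1, differed by -0.20 ± 0.27 and was not detected on either TAC_BIX array. Zinc finger genes of the Zfp series had 130 of 194 above 0 and a median of 0.10, which became -0.0080 with median scaling. At an adjusted p under 0.1, Zfp560 was the 1 lower (-1.34 ± 0.18) and Zfp131 the 1 higher (0.69 ± 0.16). The shares of all genes lower and higher were 4.24% and 0.883%.

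Hypertrophy genes lay on both sides of 0. Of 27 hypertrophy and fetal genes 15 were below 0 and 12 above, with a median of -0.02 that changed sign in 4 settings, and 0 were at an adjusted p under 0.1. The groups did not overlap for 7 that were higher and 4 that were lower, against 3025 and 2422 of all 10538 genes. At an unadjusted p under 0.05 there were 3 lower, near the 10.7% of all genes, and 1 higher. The 3 were the metallothionein gene Mt2 (-0.88 ± 0.31), the acyl-CoA thioesterase gene Acot1 (-0.86 ± 0.32) and Ankrd2, a muscle ankyrin repeat gene. Ankrd2 measured 6.18 and 5.44 in TAC_DMSO and 5.19 and 5.06 in TAC_BIX and was not detected in sham (-0.68 ± 0.25, adjusted p = 0.197). Acta1, the skeletal actin gene, measured 14.70 and 14.71 in TAC_DMSO and 14.79 and 14.76 in TAC_BIX, close to the highest signal of the arrays, against 12.65 and 12.80 in sham. Nppb, which encodes the brain natriuretic peptide BNP, measured 14.15 and 13.75 against 13.86 and 13.91. Myh7, the fetal myosin heavy chain gene, measured 7.56 and 8.78 against 7.77 and 10.69, so TAC_BIX replicate 2 stood apart and the difference without it was -0.40. Of sarcomere genes, 20 of 28 were above 0, with a median of 0.15 that became -0.13 with median scaling, and Cmya5 (0.85 ± 0.21) and Myot (0.70 ± 0.18), both of the Z-disc region, were at an adjusted p under 0.1. Kcne1, an auxiliary subunit of a cardiac potassium channel, measured 8.62 and 9.30 against 7.93 and 8.04 (-0.98 ± 0.24, adjusted p = 0.0907), with a difference of -0.64 for the mean of its probes and also without TAC_DMSO replicate 2.

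Fibroblast and matrix transcripts varied more between replicates than between the groups, and erythroid transcripts varied widely in both ways. The fibroblast list stood at 0.32 and -0.32 in TAC_DMSO and at -0.06 and 0.52 in TAC_BIX, with a median difference of 0.36 that became -0.055 without TAC_BIX replicate 2 and -0.13 without TAC_DMSO replicate 2. The matrix and fibrosis list stood at 0.45 and -0.45 against -0.24 and 0.55, and its median difference of 0.12 became -0.24 and -0.28 without those arrays. Erythroid genes had a median of -0.98, which became 0.12 without TAC_DMSO replicate 2, and their summed signal was 47849 and 81415 in TAC_DMSO and 31437 and 8074 in TAC_BIX. Mural cell genes pointed both ways, with Higd1b, a pericyte gene, at -0.99 ± 0.21 and Notch3, a receptor of pericytes and smooth muscle, at 0.78 ± 0.19 (adjusted p = 0.0725 and 0.0889).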

How the data were processed

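RNA from cardiomyocyte-enriched mouse heart cells was measured on 6 Illumina MouseWG-6 v2 arrays, 2 each of sham, TAC_DMSO and TAC_BIX, grouped by their labels. The authors deposited a table of probe signal intensities, not normalized, with a detection p-value for each probe and array, and a table of processed log2 values, which served as an alternative. GenomeStudio 2011.1, lumi and limma are named per the submitters' processing notes, and what each did is not given in the sources used here. Nothing says that replicates came from separate mice, so p-values measure the spread between these arrays, which may be technical. Precision is limited by the number of arrays.

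Intensities were background-corrected from the detection p-values, offset by 16, quantile normalized and put on a log2 scale (neqc, limma 3.58.1, R 4.3.3). Quantile normalization gives every array the same distribution of signals, so a shift shared by most genes would not show. Of 45281 probes, 34885 were paired with 1 gene in the platform annotation, 18 with several and 10378 with none. A probe was kept when its detection p was under 0.05 on at least 2 of the 6 arrays, and the brightest kept probe stood for its gene, which left 10538 genes. Differences were tested with lmFit and eBayes on all 6 arrays (3 residual degrees of freedom), two-sided, with Benjamini-Hochberg adjustment over all genes and a threshold of 0.05. Where both arrays of the lower group were not above background, a fold is given as a lower bound. The procedure was tested on simulated data: for this comparison over 10538 genes it called 69% of genes changed by 1 log2 unit and 99% of those changed by 2, with 11 false calls. The simulated noise was normal, independent and of the same size in all groups. Each gene's noise had the SD that eBayes estimated in this same fit, which draws the SDs of genes together. These shares therefore need not hold for arrays whose replicates spread unequally, as for Sln.

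The genes and lists were chosen with earlier results of these data known. Named genes were the 12 largest differences in each direction among genes at an adjusted p under 0.1 with groups that did not overlap and detection on both arrays of the higher group, up to 4 members of each list by smallest p, and a fixed cardiac panel. Others are said to be chosen after their values were seen. The splits of lists into subunits or families were also made after the values were seen. Same-numbered replicates deviated with correlations of -0.243 to 0.0863 (-0.156 for TAC_BIX with TAC_DMSO), so the numbers were not used to pair arrays. Protein lengths were not used here, and the genomic span of each gene (RefSeq, GRCm38.p6) took their place. Alternatives covered normalization, offset, detection filter, choice of probe, variance model, the arrays in the fit and the replicate block.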

Additional observations from a re-analysis of the deposited data

How the results depend on the processing

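The count of genes at an adjusted p under 0.05, which was 0, depended on the processing. It was 709 with quantile normalization and no background correction, 642 with the authors' processed values, 447 with median scaling, 563 with an offset of 50, 136 among genes detected on all 4 arrays and 699 when the variance prior was robust and followed intensity. It was 9 with median scaling over all probes, an alternative added after seeing the data, and 0 to 6 when 1 array was left out. At an adjusted p under 0.1 the count of 540 became 1340, 1297, 833, 1147 and 1204 under the first 4 of these and the robust prior, 1 with only the 4 arrays and 0 to 195 when 1 array was left out. The replicate block gave 0 genes at either threshold, with all 6 or only the 4 arrays, where the numbers do not pair the samples. With the numbers crossed in TAC_BIX, added after seeing the data, the block gave 570 and 987.

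Among the named genes 9 changed sign in some setting. Median scaling gave -0.28 for Myl2, -0.23 for Myl3, -0.20 for Acta1 and -0.014 for Atp5a1, whose mean over probes was -0.58. Median scaling over all probes gave 0.021 for Atp5b. With 1 array left out, Nppa ran from -0.21 to 0.021, Nppb from -0.26 to 0.13, Myh7 from -0.40 to 2.52, Tnc from -4.10 to 0.54 and Atp5b from -0.096 to 0.051 and Atp5a1 from -0.048 to 0.63. List medians changed sign in 38 of 1092 recomputations. The median of all genes moved to -0.079 with median scaling and 0.235 with median scaling over all probes. The causes were not tested. Probes near background carry little information on differences, and the description by coding length was not run.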

Other observations

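Further groups outside the comparison's main pattern also held genes with separated arrays, as 51.7% of all genes had. Among ubiquitin and NEDD8 genes, Nedd8 measured 11.56 and 11.49 in TAC_DMSO and 10.69 and 10.43 in TAC_BIX (-0.96 ± 0.17), and Ube2g1, a conjugating enzyme gene, measured 10.10 and 10.33 against 10.92 and 11.12 (0.80 ± 0.18; limma adjusted p = 0.0657 and 0.0782). Subunits of the lysosomal proton pump lay on opposite sides: Atp6v1g1 differed by -0.82 ± 0.16 and Atp6v1b2 by 0.81 ± 0.18. In the proteasome, 10 of 11 genes of the 20S core were below 0 with a median of -0.45, and the 16 genes of the 19S cap had a median of 0.05, which changed sign in 3 settings. All 10 S100 genes were below 0 with a median of -0.94, while the 9 annexin genes had a median of 0.02, which changed sign in 4 settings. Clock genes had a median of 0.16 over 16 members, which became -0.037 with median scaling, with Per1 at -0.66 ± 0.20 and Per3 at 0.68 ± 0.21 (adjusted p = 0.133 and 0.139). Immediate early genes had a median of -0.22, which became 0.07 with median scaling over all probes and -0.052 without TAC_DMSO replicate 1, with Egr1 at 0.53 ± 0.17, and imprinted genes a median of 0.14 (0.0027 without TAC_BIX replicate 2 and 0.39 without TAC_DMSO replicate 1), with Gnas at 0.78 ± 0.26 and probes that disagreed.

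Some large differences rested on 1 array, and the genes named here were chosen after their values were seen. Sprr1a, a stress-induced gene of heart muscle, measured 9.29 and 5.96 in TAC_DMSO and 4.98 and 4.98 in TAC_BIX. Timp1, a metalloproteinase inhibitor gene, measured 11.76 and 8.21 against 7.99 and 7.99, and Tnc, the tenascin gene, 9.86 and 5.22 against 5.47 and 6.04. In all 3, TAC_DMSO replicate 1 stood high. TAC_BIX replicate 2 stood high for Comp, a cartilage matrix gene (6.67 and 6.34 against 7.07 and 9.83), for the collagen gene Col8a2 (5.22 and 5.42 against 5.42 and 7.63) and for Myh7. Sprr1a, Timp1 and Tnc passed the threshold of 0.05 when TAC_DMSO replicate 2 was left out, which leaves TAC_DMSO 1 array, with limma adjusted p of 0.00146 for Sprr1a and 0.00505 for Timp1 and Tnc. In the opposite case, without TAC_DMSO replicate 1, Igtp, an interferon-induced GTPase gene passed with an adjusted p of 0.034, against 0.317 with all arrays. It measured 8.41 and 10.93 in TAC_DMSO and 8.13 and 8.51 in TAC_BIX.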
